A study of Bos taurus with 12 samples.

Results

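Interferon-α (IFNα) is a type I interferon, a cytokine that cells release on sensing a virus. It binds the paired receptor chains IFNAR1 and IFNAR2, and the signal passes through the kinases JAK1 and TYK2 to transcription factors that include IRF9 and switch on interferon-stimulated genes. Chromaffin cells are the neuroendocrine cells of the adrenal medulla, which make and release catecholamines and neuropeptides. The question here was which genes of cultured bovine chromaffin cells differed after 24 h with 1 nM human IFNα (PeproTech), beyond the classical interferon-stimulated genes and with as much attention to genes that were lower as to genes that were higher.

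The comparison used 6 of the 12 arrays of the series, 3 of untreated cells and 3 of IFNα-treated cells, and all probe sets other than the array maker's controls. Of 24128 probe sets, 112 were controls and 24016 were tested. A symbol of 1 gene was given for 13292 of them, and taking the probe set with the highest mean level per symbol left 9155 genes. A second cytokine arm, 10 nM IL6 for 24 h on 3 arrays, served for direct contrasts at the same time point, and 3 arrays of cells given histamine completed the series. The submitters describe the triplicates as technical repeats, so every p-value here measures the spread between these arrays and not that between cultures or animals. How long the untreated cells were kept is not stated. The labels name no age of the animals and no culture medium.

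Values are log2 RMA levels, so a difference of 1 is a doubling. A gene was called when limma's adjusted p was under 0.05 and its fold was at least 1.5; "rose" and "fell" are used only of called genes. Chromaffin markers were bright in the untreated cells: means were 13.45 for TH, 13.62 for CHGA and 13.89 for PENK, near the top of the scale, and the 8 chromaffin markers measured averaged 12.4 to 12.5 on the untreated arrays. Levels of different probe sets are not comparable, so these values show presence and not the share of the cells. Among the treated arrays IFNα repeat 3 stood apart, correlating at 0.995 with the other 2 repeats where those 2 correlated at 0.998 with each other. The average level of 31 glycolysis and hypoxia genes was 10.08 on that array, 9.37 and 9.39 on the other IFNα arrays and 9.42 to 9.45 on the untreated arrays. It was also high on 2 of the 3 IL6 arrays used below, at 9.50, 10.04 and 10.37; without these 2 and IFNα repeat 3, 1697 probe sets differed between the cytokines instead of 1468. Without IFNα repeat 3 alone, 346 genes were called instead of 362, and 333 were shared. The loss was larger among genes that fell, with 19 of 100 no longer called against 10 of 262 that rose. The median change of the genes that fell was -0.84 on that array and -0.68 and -0.76 on the other IFNα arrays.

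After 24 h with IFNα 362 genes were called, 3.95% of those measured. Of these, 262 rose (2.86%) and 100 fell (1.09%). Over all probe sets, named or not, 807 were called (3.36%), of which 524 were higher (2.18%) and 283 lower (1.18%). Levels of the 2 conditions did not overlap in 39.7% of genes (16.5% higher, 23.2% lower) and in 32.9% of probe sets (13.3% and 19.6%), so separation of the arrays alone is common. The rises reached further than the falls. Among genes that rose, 145 reached 2-fold, 59 reached 4-fold and 25 reached 8-fold, with a median fold of 2.07. Among genes that fell, 21 reached 2-fold, 2 reached 4-fold and 0 reached 8-fold, with a median fold of 1.69. The median untreated level was 8.31 for genes that fell, 7.70 for genes that rose and 7.78 for all genes. Genes near the dim end have little room to fall 1.5-fold, so this order was partly set by the calling rule. The excess of rises belonged to the larger changes: at a fold minimum of 1.2 with the same adjusted p, 622 genes were higher and 715 lower. The median change of all genes was -0.02, and 56.5% of them lay below 0. A further 1659 genes had an adjusted p under 0.05 below the fold minimum, 575 higher and 1084 lower. An unadjusted p under 0.05 among uncalled genes of a list is therefore common. Such counts are given below without a comparison with all genes. The shares of 2.86% and 1.09% are the background for the rises and falls counted in each list.

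**Figure D1:**
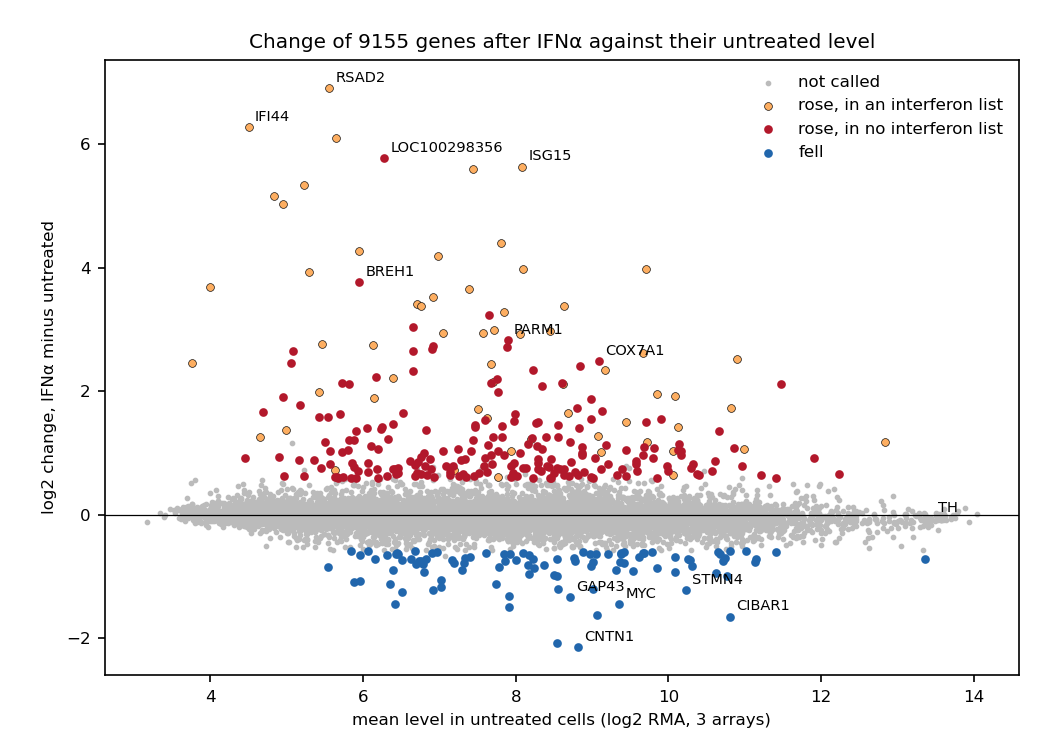
Log2 change of each of 9155 genes (vertical axis, IFNα minus untreated) against its mean level on the 3 untreated arrays (horizontal axis, log2 RMA). Orange and red points rose, blue points fell and grey points were not called. Rises extended to a log2 change of 6.91 (RSAD2) and falls to -2.15 (CNTN1).

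The known interferon genes came first in size. Of 79 genes measured in the 6 interferon lists (receptor and signalling, feedback, nucleic acid sensors, antiviral effectors, ISGylation and PARP enzymes, and MHC class I presentation), 60 rose and 0 fell; limma gave an unadjusted p under 0.05 to 6 of the 19 that were not called. RSAD2, which makes an antiviral nucleotide, read 7.16, 4.79 and 4.72 on the untreated arrays and 12.53, 12.48 and 12.40 after IFNα (log2 change 6.91, SE 0.43, limma adjusted p = 2.0e-08). Its treated values were close together, while untreated repeat 1 lay well above the other 2. That array was the highest of the 3 untreated arrays in 31 of the 60 risen list genes, and EIF2AK2, the RNA-activated kinase PKR, also varied widely, at 7.97, 6.00 and 6.16 untreated and 9.13, 10.24 and 11 treated; its other, dimmer probe set changed by -0.55.

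The receptor chains themselves did not pass the test, nor did 4 of the other 8 measured genes of the receptor and signalling list. IFNAR1 differed by -0.18 on the log2 scale (SE 0.09, limma's adjusted p = 0.23) and IFNAR2 by 0.18 (SE 0.14, adjusted p = 0.47). The level of IFNAR1 lay near the lower quartile of all probe sets, where RMA can understate a change. Among the genes that rose, IRF9, a DNA-binding factor of the interferon response, read 8.67, 8.63 and 8.55 untreated and 10.74, 10.77 and 10.71 treated, a rise of 4.36-fold. USP18, which removes ISG15 from proteins and damps the receptor, rose 18.2-fold. IRF1 and SOCS1 had no named probe set among those used here.

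Outside the 6 lists, 302 of 9076 genes were called (3.33%), of which 202 rose (2.23%) and 100 fell (1.1%). Being outside these lists does not make a gene unknown to interferon biology; LY6E, ZNFX1, TRIM34 and NT5C3A, for example, are known interferon-induced genes. All 20 of the largest rises outside the lists were also higher than on the IL6 arrays by the same test, where 3.87% of all genes were. They were picked for their size on the same IFNα arrays, so this count is not independent of that choice.

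The largest of them, LOC100298356, is known here by its symbol alone. It read 7.04, 5.93 and 5.87 on the untreated arrays and 12.13, 12.10 and 11.94 on the IFNα arrays (log2 change 5.78, SE 0.23, limma adjusted p = 7.8e-11). The groups were far apart even though untreated repeat 1 was again the high one. BREH1 went from 6.06, 5.78 and 6.02 to 9.67, 9.74 and 9.74, a 13.6-fold rise. TMEM106A, a membrane protein, went from 6.69, 6.57 and 6.70 to 9.62, 9.79 and 9.69, an 8.26-fold rise.

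Several of these rises concerned genes with roles in growth, metabolism and gene control. Midkine (MDK), a heparin-binding growth factor that promotes neurite outgrowth, read 6.48, 6.83 and 6.65 untreated and 9.19, 9.33 and 9.38 treated (6.26-fold, limma adjusted p = 7.1e-11). PARM1, a mucin-like membrane protein, read 7.92, 7.90 and 7.87 against 10.64, 10.70 and 10.82 (7.08-fold). Both genes were tightly grouped within each condition, with the treated arrays far above the untreated ones. COX7A1, a subunit of mitochondrial cytochrome c oxidase best known from heart and skeletal muscle, was already well expressed at 9.08, 9.09 and 9.11 and reached 11.61, 11.63 and 11.49 (5.59-fold, limma adjusted p = 7.7e-12). FOXS1, a forkhead transcription factor, lay near the dim end untreated, at 5.10, 5.03 and 5.11, and reached 7.62, 7.71 and 7.88 (6.31-fold). PPP2R3C, a regulatory subunit of protein phosphatase 2A, rose 4.56-fold, and the phospholipid scramblase family member PLSCR2 rose 4.40-fold.

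The pyrimidine nucleotidase NT5C3A rose 5.09-fold and the RNA helicase-like sensor ZNFX1 rose 5.31-fold, each with all treated arrays at least 2 log2 units above all untreated arrays. LY6E, a lipid-anchored surface protein that restricts the entry of some viruses, rose 6.42-fold, the ubiquitin ligase family member TRIM34 rose 6.63-fold, and TMEM140 rose 4.67-fold. BOLA-N, a class I histocompatibility gene that the class I list did not hold, rose 9.38-fold; probe sets of the class I family share sequence, so its value may include related genes, which was not tested. LOC510377 rose 6.54-fold and ABHD1, an abhydrolase domain protein, rose 5.48-fold.

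**Figure D2:**
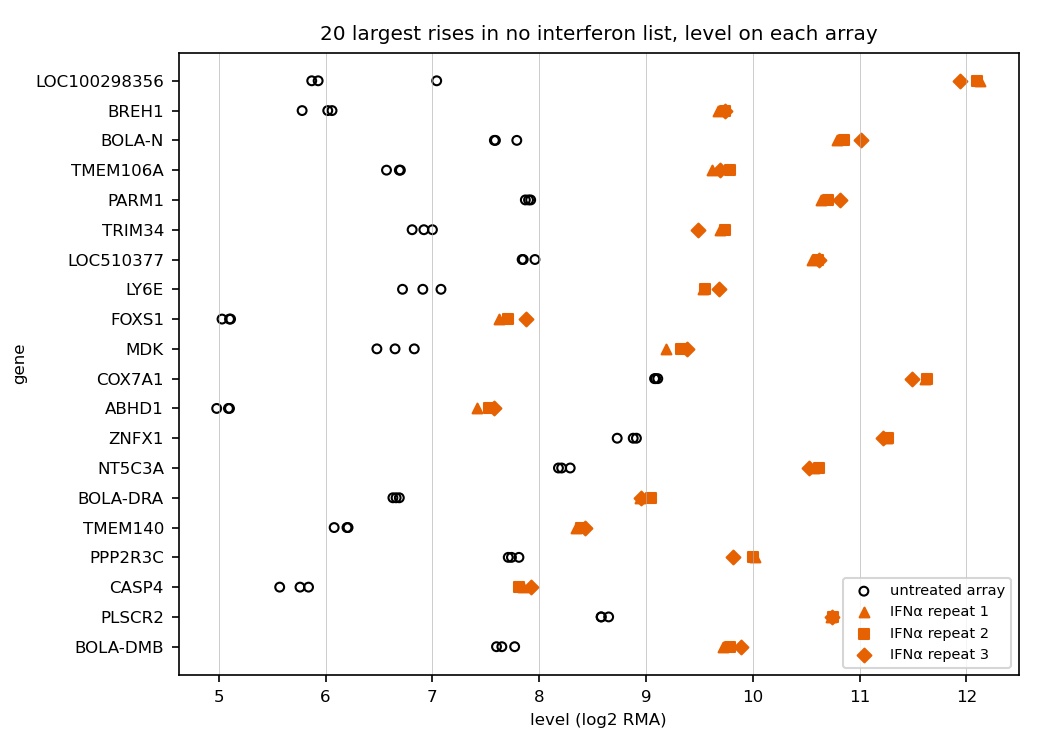
Level of the 20 largest rises outside the 6 interferon lists on each array (horizontal axis, log2 RMA; open circles, 3 untreated arrays; filled symbols, IFNα repeats 1 to 3). The rule for naming these genes required groups that do not overlap; untreated repeat 1 stands out for LOC100298356, at 7.04 against 5.93 and 5.87.

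Class II antigen presentation moved as well. Class II molecules show peptides from outside the cell to helper T cells and are usually displayed by professional antigen-presenting cells. Of 13 measured genes of this pathway 7 rose, where 2.86% of all genes rose, and 0 fell. All 13 had a change above 0, with a median of 0.65 against -0.02 for all genes. Of the 6 not called, 4 had an unadjusted limma p under 0.05. BOLA-DRA, the alpha chain of the DR molecule, read 6.63, 6.66 and 6.69 untreated and 8.94, 9.05 and 8.95 treated (log2 change 2.32, SE 0.08, limma adjusted p = 7.4e-12). BOLA-DMB, a chain of the chaperone that loads peptides onto class II, rose by almost as much, from 7.65, 7.60 and 7.77 to 9.72, 9.79 and 9.89. In both genes the arrays of each condition lay close together.

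The other 5 rises in this pathway were smaller. BOLA-DRB3, the DR beta chain, rose 1.87-fold, IFI30, a thiol reductase that unfolds antigens in lysosomes, rose 1.90-fold, and BOLA-DQA2 rose 1.67-fold. RFX5, part of the complex that drives class II promoters, rose 1.60-fold from a mean of 6.71, and the lysosomal protease CTSS rose 1.57-fold. All 7 were higher than on the IL6 arrays too, in a contrast that uses the same IFNα arrays. Dimmer probe sets of BOLA-DQA2, at 0.52 and -0.06, and of RFX5, at 0.13, were not called, while that of BOLA-DRB3, at 0.70, was. At a fold minimum of 2, 2 of the 7 remained called. Because leukocytes carry class II molecules, their markers are given beside this result: of 22 measured, 0 rose and 1 fell (S100A12, by -1.45). Their log2 levels summed to 119.25 to 119.85 untreated and 117.61 to 118.77 after IFNα. They averaged 5.42 to 5.45 on the untreated arrays, near the lower quartile of all probe sets (5.02 to 5.11), so the sum says little about leukocytes. The pan-leukocyte marker PTPRC lay at a mean of 4.56 untreated, with a change of 0.10.

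Regulators of cell death that rose included both promoters and inhibitors of it. Of 23 measured, 5 rose and 0 fell, against 2.86% and 1.09% of all genes. Of the 18 others, 6 had an unadjusted limma p under 0.05. CASP4, the caspase that senses intracellular bacterial lipopolysaccharide, went from 5.76, 5.84 and 5.57 to 7.85, 7.81 and 7.92 (4.40-fold, limma adjusted p = 3.6e-10). CFLAR, which blocks caspase-8 at death receptors, went from 7.46, 7.43 and 7.50 to 8.88, 8.95 and 8.92 (2.74-fold, adjusted p = 4.4e-11). Groups that do not overlap were a condition of naming both genes. BIRC3, an inhibitor of apoptosis, rose 1.95-fold, DAXX 1.73-fold and the death receptor FAS 1.61-fold, and the changes of BCL2 and MCL1, which protect mitochondria, were 0.01 and 0.23 and were not called.

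Only part of each list of stress and metabolic genes was called. In the oxidative stress and detoxification list, 4 of 26 rose and 2 fell, against 2.86% and 1.09% of all genes. Of the 20 not called, 13 had an unadjusted limma p under 0.05. The median change of this list was 0.11, and 16 of the 26 lay above 0. EPHX2, the soluble epoxide hydrolase that inactivates epoxy fatty acids, went from 7.94, 8.04 and 8.01 to 9.58, 9.72 and 9.60 (3.11-fold, limma adjusted p = 3.1e-11), well above the IL6 arrays at 7.31, 7.30 and 7.26. MGST1, a membrane glutathione transferase, rose 1.92-fold. HMOX1, the enzyme that breaks down haem, read 8.86, 8.77 and 8.77 untreated and 9.68, 9.86 and 12.03 treated. Its rise leaned on IFNα repeat 3, without which the log2 change was 0.97 and not called, and the call was also lost without any 1 of the untreated arrays; MT2A, a metallothionein, also lost its call without that array, at 0.58.

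MANF, an endoplasmic reticulum stress protein with neurotrophic activity, rose from 10.62, 10.74 and 10.64 to 11.99, 12.05 and 12 (2.54-fold, limma adjusted p = 9.5e-12). The other rise among 19 genes of that list was SESN2, a stress-induced inhibitor of mTORC1, at 1.86-fold, while the PERK kinase gene EIF2AK3 fell 1.66-fold. Of the 16 endoplasmic reticulum stress genes not called, 8 had an unadjusted limma p under 0.05. The median change of that list was -0.12. WARS1, the tryptophanyl-tRNA synthetase, rose 2.83-fold (a second bright probe set changed by -0.03), and NAMPT, which starts NAD salvage, rose 2.39-fold. PSMF1, which codes for the proteasome regulator PI31, rose 2.92-fold and was the single call among 28 constitutive proteasome genes. Of the 27 others, 15 had an unadjusted limma p under 0.05, and the median change of the list was 0.08. SCNN1G, the gamma subunit of the epithelial sodium channel, went from 5.18, 5.20 and 5.13 to 7.02, 7.08 and 6.72 (3.41-fold); the IL6 arrays, at 6.70, 6.68 and 6.56, lay just below the IFNα arrays (difference 0.29, adjusted p = 0.021, under the fold minimum).

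Secreted immune signals moved little beside the antiviral genes. Of 40 cytokines and chemokines, 5 rose (CSF1, CCL8, IL6, CCL5 and IL7) and 2 fell, against 2.86% and 1.09% of all genes. Untreated means of IL6 and CCL8, 4.45 and 4.90, lay below the lower quartile of all probe sets, and that of CCL5, 5.16, lay just above it. A second, dimmer probe set of CSF1 changed by 0.22 and was not called. The falls were those of TGFB2, at 1.67-fold, and IL18, which activates natural killer and T cells, at 1.55-fold; without IFNα repeat 3 the change of IL18 was -0.58 and not called, and IL7 lost its call without any 1 of the untreated arrays, IFNα repeat 1 or IFNα repeat 2. Of 24 complement and acute phase genes, 4 rose and 1 fell, against 2.86% and 1.09% of all genes. C4A, which carries the complement cascade onto its target, went from 8.90, 8.82 and 8.78 to 10.30, 10.31 and 10.10 (2.65-fold), while the protease inhibitor A2M fell 2.00-fold. OSMR, a receptor chain for oncostatin M, rose 1.87-fold at its brightest probe set, but by 1.78 and 2.12 on the log2 scale at 2 others, so its size rests on the probe set. SOCS2, an inhibitor of cytokine receptors, rose 1.66-fold. At the probe sets used, their differences from the IL6 arrays were -0.03 and 0.10 and were not called.

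The genes that fell included a set that builds and guides neuronal processes. Of 35 genes for neural adhesion and axon growth, 6 fell and 0 rose, against 1.09% of all genes that fell; 31 of the 35 lay below 0, and their median change was -0.19 against -0.02 for all genes. Of the 29 not called, 11 had an unadjusted limma p under 0.05. The deepest fall on the array was that of CNTN1, contactin-1, a lipid-anchored cell adhesion molecule of axons. It read 8.92, 8.73 and 8.80 on the untreated arrays and 6.87, 6.88 and 6.26 on the IFNα arrays (log2 change -2.15, SE 0.14, limma adjusted p = 2.8e-08; 4.43-fold). IFNα repeat 3 was the lowest, but the other 2 repeats were each far below every untreated array.

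GAP43, the growth-cone protein used as a marker of axon extension, read 8.63, 8.84 and 8.67 untreated and 7.40, 7.28 and 7.45 treated (2.53-fold lower, adjusted p = 3.8e-09). STMN4, a stathmin that binds tubulin, read 10.18, 10.24 and 10.26 untreated and 9.07, 9.05 and 8.89 treated (2.33-fold lower, adjusted p = 2.3e-09). All treated values of both genes lay more than 1 log2 unit below all untreated ones. OMG, a myelin-associated inhibitor of neurite growth, fell 1.71-fold, NRCAM, an adhesion molecule of the L1 family, fell 1.57-fold, and the dendritic microtubule protein MAP2 fell 1.52-fold. The last 2 were near the fold limit: NRCAM was not called without IFNα repeat 2, and MAP2 not without IFNα repeat 3, at -0.56. Neurofilament genes did not follow, with changes of -0.04 for NEFL and -0.01 for NEFM, neither called. At a fold minimum of 2 the count of falls was 3, and at 1.2 it was 12.

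Receptors for neural growth factors and transmitters were among the falls as well. NTRK2, which codes for TrkB, the receptor of brain-derived neurotrophic factor, read 7.91, 7.92 and 7.89 untreated and 6.59, 6.49 and 6.67 treated (log2 change -1.32, SE 0.06, limma adjusted p = 3.6e-10). The repeats hardly differed within either condition. KIT, the stem cell factor receptor, fell 1.61-fold, but the change was -0.51 and not called without IFNα repeat 3; these were the 2 falls among 32 growth factor receptors and ligands, of which 0 rose and 6 others had an unadjusted limma p under 0.05. Of 7 glutamate and GABA receptor genes measured, GRIK1 fell 1.69-fold and GRM7 fell 1.63-fold, where 1.09% of all genes fell. MTURN, a regulator of neural differentiation that belonged to no list, went from 7.95, 7.90 and 7.87 to 6.46, 6.41 and 6.38, a 2.81-fold fall. Another of its probe sets changed by -1.12 and was called. Dimmer ones, at -0.15, -0.25 and -0.18, were not called, so the size of this fall rests on the probe set. NDP, the secreted ligand norrin, fell 1.96-fold and TSPAN12, a tetraspanin that serves as its co-receptor, fell 2.17-fold. A second, dimmer probe set of TSPAN12 changed by -0.46 and was not called.

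**Figure D3:**
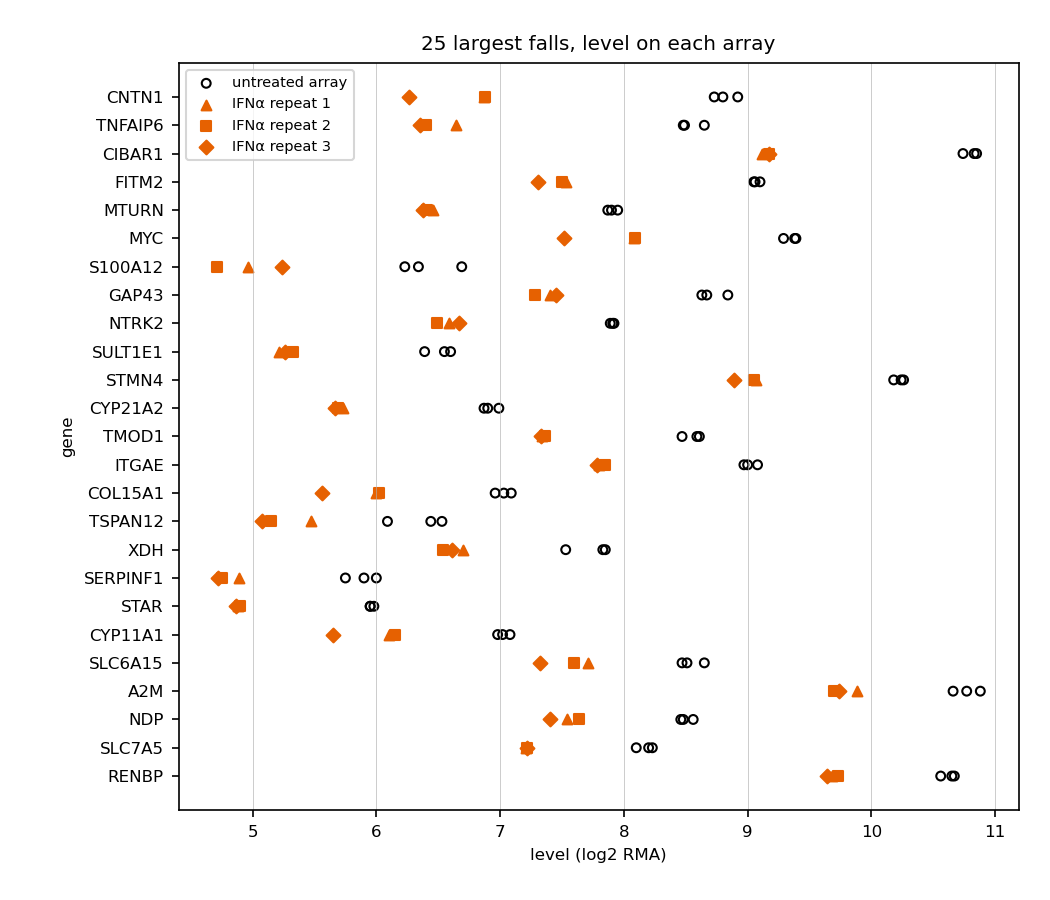
Level of the 25 largest falls on each array (horizontal axis, log2 RMA; open circles, 3 untreated arrays; filled symbols, IFNα repeats 1 to 3). The rule for naming these genes required groups that do not overlap; IFNα repeat 3 is the lowest treated array for CNTN1 (6.26), MYC (7.52) and CYP11A1 (5.65).

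Extracellular matrix genes were the other sizeable group of falls. Of 39 measured, 6 fell and 0 rose, where 1.09% of all genes fell. Of the 39, 32 lay below 0, where 56.5% of all genes did, and the median change was -0.14 against -0.02. An unadjusted limma p under 0.05 was given to 18 of the 33 others, a count not compared with all genes. TNFAIP6, a secreted protein that binds hyaluronan and remodels it in inflammation, went from 8.65, 8.49 and 8.48 to 6.64, 6.40 and 6.35 (log2 change -2.08, SE 0.09, limma adjusted p = 1.8e-10). No treated array came near an untreated one. Basement membrane genes made up 3 of the remaining falls: laminin LAMB1 (1.83-fold), type IV collagen COL4A1 (1.56-fold) and nidogen NID1 (1.51-fold). COL12A1 fell 1.87-fold and thrombospondin THBS1 fell 1.67-fold (-0.10 at a second probe set as bright), and COL15A1, a basement membrane collagen that was not in the list, fell 2.24-fold. Dimmer probe sets of COL4A1 (-0.31), COL12A1 (-0.04 and -0.11) and COL15A1 (-0.41) were not called. A dimmer probe set of TNFAIP6 (-1.67) and one of THBS1 (-0.83) were called. The group depended on borderline members: 4 fell without IFNα repeat 3, when THBS1 and NID1 were not called (NID1 also not without IFNα repeat 2, untreated repeat 2 or untreated repeat 3), 3 when all probe sets of a gene were averaged, 1 at a fold minimum of 2 and 14 at 1.2.

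Markers of other adrenal cells were lower on the same arrays. Of 15 cortex markers 5 fell and 0 rose, where 1.09% of all genes fell, and 12 lay below 0, where 56.5% of all genes did. Of the 10 not called, 5 had an unadjusted limma p under 0.05. The steroid 21-hydroxylase CYP21A2 went from 6.90, 6.87 and 6.99 to 5.73, 5.69 and 5.67 (2.33-fold lower), CYP11A1, which starts steroid synthesis, went from 6.98, 7.08 and 7.02 to 6.10, 6.15 and 5.65 (2.08-fold), and STAR, the cholesterol carrier of mitochondria, went from 5.98, 5.95 and 5.95 to 4.88, 4.90 and 4.87 (2.11-fold). STAR ended below the lower quartile of all probe sets on every array, where RMA can understate a fold. HSD3B1 fell 1.75-fold and CYP17A1 1.65-fold; the count was 3 at a fold minimum of 2 and also without the dimmer 50% of probe sets. In RNA from a whole culture, fewer cells of a type and less RNA per cell cannot be told apart.

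The summed level of the cortex markers was 106.60 to 106.61 untreated and 100.66 to 100.71 after IFNα. Fibroblast and mural markers, which share genes with the matrix list, summed to 126.52 to 126.64 untreated and 121.95 to 123.72 after IFNα. Of these, 15 of 17 were below 0 and 1, the smooth muscle actin ACTA2, fell, at 1.70-fold. An unadjusted limma p under 0.05 was given to 11 of the 16 others. Endothelial markers summed to 100.58 to 101.93 and 98.24 to 98.54, and 1 of 18 fell, the endothelial sialomucin EMCN, at 1.86-fold (2 fell without untreated repeat 2 or IFNα repeat 1). Of the 17 other endothelial markers, 8 had an unadjusted limma p under 0.05. Schwann and sustentacular cells, the glia of the medulla, had 6 of 7 markers below 0 and 0 called (2 at an unadjusted limma p under 0.05), with sums of 47.88 to 48.62 untreated and 46.94 to 47.72 after IFNα. The part of these cells in the matrix and neural results was not tested. Chromaffin markers summed to 99.35 to 99.73 untreated and 99.23 to 101.14 after IFNα, and 0 of 8 were called, with 4 at an unadjusted limma p under 0.05.

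In the direct contrast with IL6, part of the falls were called lower than after IL6. Over all genes, 6.96% were called in this contrast, 3.09% lower and 3.87% higher with IFNα than with IL6; over all probe sets these were 6.11%, 2.82% and 3.29%. Of the 100 genes that fell, 51 were also lower than on the IL6 arrays, 0 were higher and 49 were not called; of the 262 that rose, 224 were higher than on the IL6 arrays, 1 was lower and 37 were not called. Of the 49 falls not called, 25 had an adjusted p under 0.05 with a difference under the fold minimum (24 lower and 1 higher with IFNα), as did 26 of the 37 rises (all higher). Both contrasts contain the same IFNα arrays, so these counts are not independent of the comparison with untreated cells. Among the 25 largest falls, 21 were lower than after IL6.

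Of the 6 neural adhesion and axon genes that fell, 4 were lower than after IL6 (CNTN1, GAP43, STMN4 and NRCAM). MAP2 and OMG were not called, with differences (IFNα minus IL6) of -0.33 and 0.29. For both, all IL6 arrays lay below all untreated arrays. GAP43 read 10.83, 10.87 and 10.82 with IL6, a difference between the cytokines of -3.46 (IFNα minus IL6). Among falls of other lists, NTRK2 read 9.39, 9.43 and 9.46 with IL6 (difference -2.84), and GRM7 read 8.66, 8.60 and 8.64 (difference -2.00). For GAP43, NTRK2 and GRM7 the untreated arrays lay between those of the 2 cytokines. TNFAIP6 had the same order, at 10.58, 10.38 and 10.31 with IL6 (difference -3.96), as did ATF3, a stress-induced transcription factor, which fell 1.78-fold after IFNα and differed by -1.90 from IL6. CNTN1 and STMN4, at 8.58, 8.40 and 8.23 and at 10.45, 10.35 and 10.28 with IL6, were nearer to their untreated levels.

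Of the 5 cortex markers and 6 matrix genes that fell, 8 were not called in the contrast with IL6. Of the 8, 2 had an adjusted p under 0.05 with a smaller difference, COL12A1 at -0.36 and CYP17A1 at -0.29. CYP11A1 read 5.98, 5.74 and 5.54 with IL6, as low as with IFNα (difference 0.21, not called), and HSD3B1 read 7.37, 7.38 and 7.40 (difference -0.03). THBS1, NID1, COL4A1 and ACTA2 differed between the cytokines by -0.01, -0.01, -0.18 and -0.09, none of them called. All 3 IL6 arrays lay below all 3 untreated arrays for each of these genes. The 3 that were lower with IFNα were CYP21A2, at -0.75, LAMB1, at -0.82, and TNFAIP6. Of the 15 cortex markers 1 was lower than after IL6, of the 39 matrix genes 4, and of the 35 neural genes 8.

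**Figure D4:**
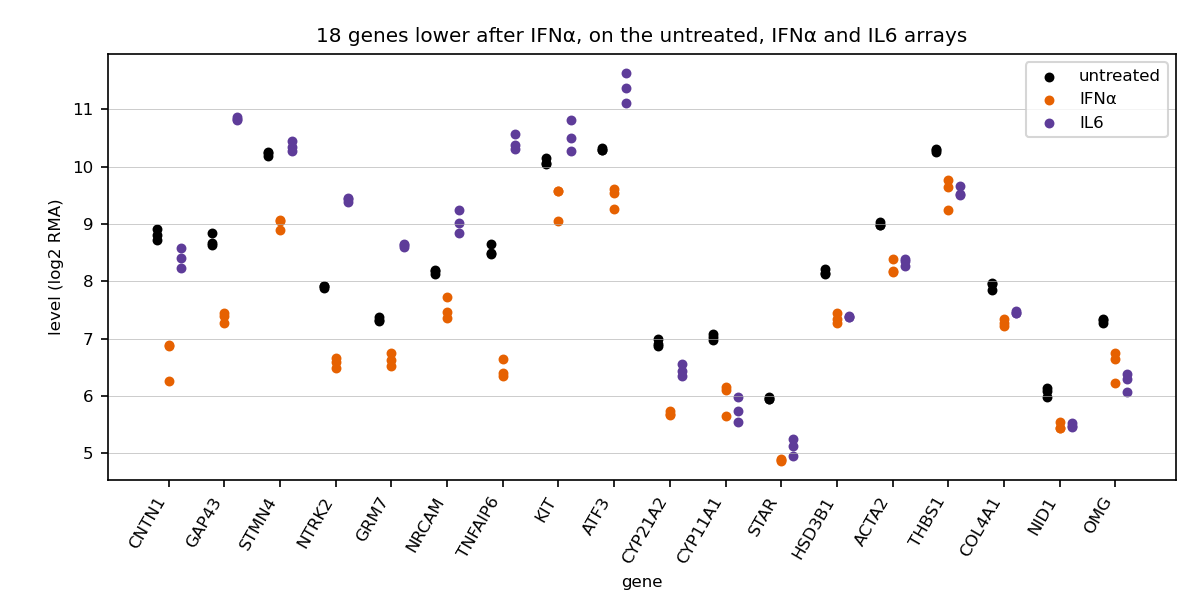
Levels of 18 genes that fell after IFNα (vertical axis, log2 RMA; each point is 1 array; black untreated, orange IFNα, purple IL6). For GAP43, NTRK2, GRM7, NRCAM, TNFAIP6 and ATF3 the IL6 arrays lie above the untreated ones, while for CYP11A1, HSD3B1, ACTA2, THBS1, COL4A1 and NID1 they lie with the IFNα arrays.

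The remaining large falls came from varied functions. CIBAR1, a membrane-curving protein of the ciliary base, had closely spaced repeats in both conditions, going from 10.74, 10.83 and 10.85 to 9.12, 9.17 and 9.17 (3.15-fold, limma adjusted p = 1.0e-12). FITM2, an endoplasmic reticulum protein needed for lipid droplets, went from 9.10, 9.05 and 9.06 to 7.53, 7.50 and 7.31 (3.08-fold, adjusted p = 2.6e-11), and was the single fall among 15 genes of sterol efflux and lipid droplets. MYC, a transcription factor that drives growth, went from 9.29, 9.38 and 9.39 to 8.08, 8.09 and 7.52 (2.74-fold, adjusted p = 8.9e-05). IFNα repeat 3 was the lowest array for FITM2 and MYC.

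MYC was the single fall among 18 genes of MYC and ribosome biogenesis, whose median change was -0.02. The actin-capping protein TMOD1 fell 2.32-fold, the integrin chain ITGAE 2.31-fold, xanthine dehydrogenase XDH 2.17-fold and RENBP, an epimerase of amino sugar metabolism, 1.92-fold. SULT1E1, the oestrogen sulfotransferase, fell 2.37-fold and ALDH1A1, a retinaldehyde dehydrogenase, 1.89-fold. Amino acid transporters were represented by SLC7A5, the carrier of large neutral amino acids, which went from 8.20, 8.10 and 8.23 to 7.21, 7.22 and 7.22 (1.95-fold), and by SLC6A15, which fell 2.00-fold. S100A12 and SERPINF1 fell 2.73-fold and 2.14-fold to mean levels below that quartile.

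The secretory machinery of the chromaffin cell showed no called change. Of 12 genes of catecholamine synthesis, 15 of the secretory granule, 19 neuropeptides and 27 of exocytosis and calcium channels, 0 were called, with 4, 5, 8 and 8 of them at an unadjusted limma p under 0.05. TH, the rate-limiting enzyme of catecholamine synthesis, read 13.45, 13.51 and 13.38 untreated and 13.36, 13.40 and 13.42 treated (log2 change -0.05, SE 0.03, limma adjusted p = 0.28). Galanin (GAL) changed by 0.19, with an adjusted p of 0.00024 but far under the fold minimum. The peptide hormone stanniocalcin (STC1) read 5.22, 4.89 and 5.10 untreated and 5.37, 5.18 and 8.14 treated, high on repeat 3 alone and not called. PNMT, which converts noradrenaline to adrenaline, read 8.08, 8.06 and 8.22 untreated and 8.55, 8.38 and 9.38 treated (log2 change 0.65, SE 0.23, adjusted p = 0.069), with repeat 3 the high array. It was called, at 0.85, when IFNα repeat 2 was left out. Of 37 receptors for secretagogues and peptides, GPR37, an orphan receptor, rose 1.54-fold and the melanocortin receptor MC4R fell 1.68-fold, from 8.86, 8.72 and 8.74 to 8.56, 8.12 and 7.39; GPR37 was not called without IFNα repeat 1, IFNα repeat 2 or untreated repeat 2, nor MC4R without IFNα repeat 2, IFNα repeat 3 or any 1 of the untreated arrays.

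Broader programmes that might have moved with growth or inflammation also gave few calls. Of 18 NF-κB pathway genes, 32 cell cycle genes and 26 genes of cholesterol and fatty acid synthesis, 0 were called, with 3, 10 and 12 at an unadjusted limma p under 0.05. In the last of these lists 18 of 26 lay below 0, with a median of -0.14. The 6 genes of tetrahydrobiopterin synthesis, the cofactor of TH, had 0 calls with 3 at an unadjusted p under 0.05, and GCH1, its first enzyme, had a change of 0.17 (adjusted p = 0.28). ID1, an inhibitor of differentiation factors, rose 1.83-fold and was the single call among 22 TGF-β and BMP genes.

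**Figure D5:**
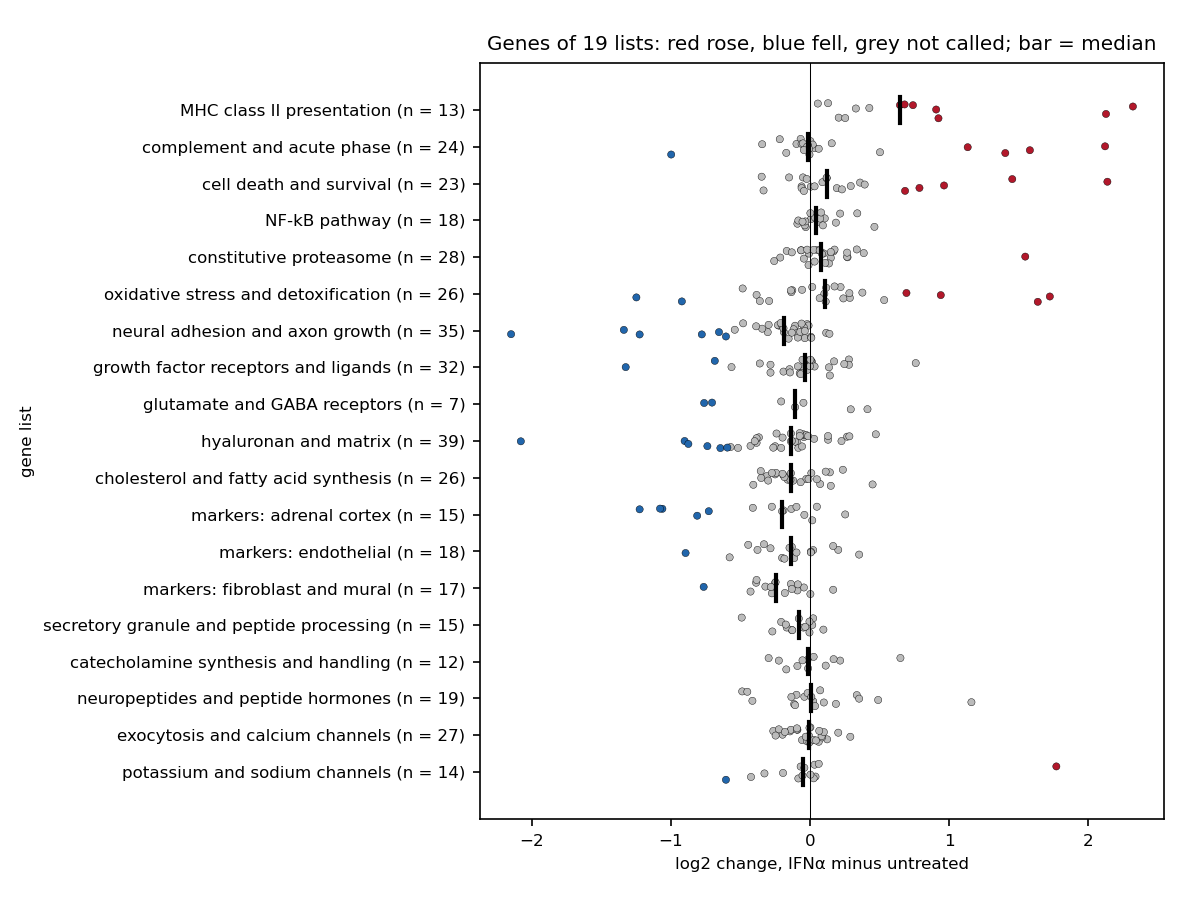
Log2 change (horizontal axis, IFNα minus untreated) of the measured genes of 19 lists, 1 point per gene, red where it rose, blue where it fell and grey where it was not called; the bar is the median of the list. All class II genes lie above 0 with a median of 0.65, 31 of 35 neural genes and 32 of 39 matrix genes lie below 0, and no granule, catecholamine, neuropeptide or exocytosis gene is coloured.

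Genes that rose were often next to each other on the chromosome. In the gene order of the cattle assembly ARS-UCD2.0, used for order alone, 42 of 260 risen genes with a placed neighbour (16.15%) had a nearest measured neighbour that rose, while 2.82% of all 9137 placed genes had one. Among 99 placed genes that fell, 0 had a nearest neighbour that fell, against 0.83% of all. The rises formed 25 distinct pairs. Of these, 10 had both genes in an interferon list, among them IFI44 with IFI44L, MX1 with MX2 and PARP9 with DTX3L. Such neighbours are often related copies, and a probe set may then read both.

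The pairs also held genes of unrelated function, which were chosen after their values were seen. In 8 pairs 1 gene was in an interferon list, such as NMI with RBM43 (log2 changes 1.51 and 1.49), IRF3 with BCL2L12 (1.18 and 1.10) and IFIT2 with LIPA, the lysosomal acid lipase (1.99 and 1.11). In 7 pairs neither gene was, such as PARM1 with BTC, the growth factor betacellulin (2.82 and 1.58), ACHE with UFSP1 (1.39 and 1.26) and NREP with YTHDC2 (0.62 and 1.13). C1R and C1S, neighbours that code for the proteases of the first complement component, rose together as well (2.12 and 1.58).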

How the data were processed

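Biotin-labelled total RNA was hybridised to single-colour Affymetrix bovine arrays, 12 in all, per the labels' protocols. The deposited values are log2 levels made by the authors with RMA, per the submitters' processing notes; no version or settings of RMA are given in the sources used here. The number of arrays, 3 per group, limits precision. Symbols came from the platform annotation (13292 probe sets with 1 symbol, 86 with several, 10638 with none, the last 2 kinds tested but not named), with 13263 matched to a current gene table by identifier.

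Group means of all 12 arrays were fitted with limma 3.58.1 in R 4.3.3 (lmFit, eBayes with trend), with Benjamini-Hochberg adjustment over 24016 probe sets. On simulated data for this comparison, the test called 29.9% of probe sets changed 1.5-fold and 100% of those changed 2-fold. A 1.5-fold change lies at the fold minimum itself, and 76.1% of those probe sets had an adjusted p under 0.05. The simulated noise was independent between probe sets, so a shift shared by many genes of 1 array was not simulated. The genes named were the 5 largest rises, the 20 largest outside the interferon lists, the 25 largest falls, up to 6 called members in each direction of 46 gene lists, and a few fixed genes. Comparisons, lists and rules were chosen with earlier results of these data known. Alternatives covered fold minimum, normalization, variance model, dim probe sets, samples fitted and arrays left out.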

Additional observations from a re-analysis of the deposited data

How the results depend on the processing

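The counts of called genes followed the fold minimum. At a minimum of 1.2, 1337 genes, 2928 probe sets and 1273 genes outside the interferon lists were called, and 4932 probe sets differed from IL6. At a minimum of 2 these were 166, 326, 110 and 550. In 2 alternatives added after seeing the data, a minimum of 1.2 with median centring gave 1327, 2910, 1263 and 5150, and with quantile normalization 1352, 2955, 1288 and 4820. At the minimum of 1.5 no other setting moved any of these 4 counts by over 1.5 times, and leaving out 1 array gave 346 to 379 genes, 772 to 859 probe sets, 286 to 319 genes outside the lists and 1444 to 1615 probe sets against IL6. Repeat numbers did not pair arrays (correlations of deviations 0.10, 0.02 and 0.02); with a replicate block 368 genes, 827 probe sets, 308 genes outside the lists and 1473 probe sets against IL6 were called. Without the dimmer 50% of probe sets 291 genes were called, the lowest count at that minimum. No called gene changed sign. KCNMA1 lost its call without untreated repeat 2. A planned count of promoter motifs was not run for want of promoter sequences.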

Other observations

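Of the 100 genes that fell, 65 were in no gene list, and a few are described here; all genes of this paragraph and the next were chosen after their values were seen. RPL4, a protein of the large ribosomal subunit, read 13.37, 13.39 and 13.34 on the untreated arrays, 12.60, 12.69 and 12.64 after IFNα and 13.37, 13.32 and 13.30 after IL6, so that all IFNα arrays lay below all others of these groups (log2 change -0.72, SE 0.03, limma adjusted p = 5.8e-11). NSA2, a factor of ribosome assembly, fell 1.65-fold from 11.11, 11.21 and 11.12. KARS1, the lysyl-tRNA synthetase, fell 1.70-fold, in contrast to the rise of WARS1. The small GTPase RAB18 fell 1.81-fold, the Golgi protease MBTPS1, which activates sterol-response factors, fell 1.69-fold, and IGF2R, the mannose-6-phosphate receptor, fell 1.63-fold. The chemokine receptor CXCR4 read 10.00, 10.19 and 10.06 untreated and 9.27, 9.48 and 8.72 treated, a fall of 1.90-fold.

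Rises of the same kind included ANXA1, a phospholipid-binding protein that mediates glucocorticoid effects, which went from 8.87, 9.03 and 9.04 to 10.71, 10.84 and 11 (3.66-fold). RGS1, which shortens G protein signalling, went from 8.42, 8.30 and 8.32 to 10.24, 10.47 and 10.58 (4.24-fold). ACHE, the enzyme that breaks down acetylcholine, the transmitter that drives chromaffin secretion, went from 6.36, 6.23 and 6.11 to 7.56, 7.50 and 7.82 (2.63-fold). All 3 genes were higher than on the IL6 arrays, with differences of 1.97, 1.85 and 1.54.

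Of 76 risen genes with further probe sets, 54 had another one called the same way, and of 31 fallen genes 13 had; in neither group was another probe set called the opposite way. Beyond the named genes, 176 higher and 156 lower probe sets had no single symbol.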
